A study of Homo sapiens with 18 samples.

Results

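Genes of DNA double-strand break repair and of the DNA damage checkpoint were followed in triple-negative breast cancer (TNBC) cells after silencing of PBRM1, IRF1 or MUC1. The 34 genes were taken from a list made by function, covering homologous recombination, end joining, the Fanconi pathway and checkpoint signaling, out of 25721 symbols in the 3 expression tables. A row was present for 33 of them in the PBRM1 table, where MDC1 had none, and for 34 in each of the IRF1 and MUC1 tables.

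In all, 18 libraries in 6 groups of 3 were compared in pairs. BT-549 cells, which are wild type for BRCA1, carried a stable PBRM1shRNA and were set against BT-549 control cells whose labels name no hairpin. In other assays of the paper the control of PBRM1shRNA cells carried a control shRNA. Other BT-549 cells carried a stable IRF1shRNA and were set against a separate control shRNA group. MDA-MB-436 cells, which carry a BRCA1 mutation, held a tetracycline-inducible MUC1 hairpin (MDA-MB-436/tet-MUC1shRNA) and were given doxycycline (DOX, 500 ng/ml) to induce it or 0.1% DMSO as vehicle. The paper states that cells given the vectors were selected in puromycin. Each silenced group is one selected population with 1 hairpin sequence, and no DOX-treated cells with a control hairpin were analysed here, so DOX and MUC1 silencing cannot be told apart. The labels say that the cultures were grown in triplicate, so p-values measure the spread among cultures of one line.

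A double-strand break can be rejoined directly or copied from an intact sister. In end joining, the XRCC5 and XRCC6 (Ku) heterodimer holds the ends, PRKDC (DNA-PKcs) is the kinase it recruits, and LIG4 with XRCC4 seals them. In homologous recombination the ends are cut back, BRCA1 with BARD1 and then PALB2 and BRCA2 load the recombinase filament, and the filament invades the sister. The kinases ATM and ATR report breaks and single-stranded DNA to CHEK2 and CHEK1, which hold the cell cycle. The Fanconi proteins join these pathways at crosslinked DNA. Cells that lack BRCA1 or BRCA2 function are known for sensitivity to drugs that break DNA.

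Expression was given as TPM, the length-corrected share of a transcript in a library that sums to 1000000. Short noncoding RNAs took 75.5% to 79.2% of the TPM in BT-549 libraries of the PBRM1 set and 84.8% to 88.5% in the IRF1 set, against 12.0% to 15.2% in MDA-MB-436 libraries. TPM weights short transcripts up, so these are not shares of reads, and the kit selects poly(A) RNA, so how far the values reflect the RNA of the cells is uncertain. Fold changes are given for TPM as deposited and, where a call depends on it, for TPM rescaled after these RNAs were removed. The targeted gene was lower in every silenced library of its own experiment. PBRM1 had 3.22, 2.69 and 2.95 TPM in PBRM1shRNA cells, against 12.3, 10.7 and 12.6 TPM in control cells. IRF1 had 1.03, 1.30 and 1.19 TPM in IRF1shRNA cells, against 5.22, 4.49 and 4.54 TPM in control cells. MUC1 had 3.65, 2.71 and 2.73 TPM in DOX-treated cells, against 6.37, 4.97 and 5.55 TPM in vehicle-treated cells. The targets also moved outside their own experiment. In PBRM1shRNA cells IRF1 (log2 fold -1.59, and -1.765 rescaled) and MUC1 (-0.54) were lower. The IRF1 fold in IRF1shRNA cells was -1.40, and -1.80 rescaled, so the order of the 2 folds depends on the scale. PBRM1 was lower in DOX-treated MDA-MB-436 cells (-0.60), where IRF1 was not called (0.04). In IRF1shRNA cells PBRM1 (0.015) and MUC1 (-0.08) were not called as deposited, and PBRM1 was called higher after rescaling (0.13).

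Read depth per library is not kept by TPM, so the authors' mean normalized count over the libraries of a comparison was used to show how well a gene was covered. Among members that passed the filter (at least 1 TPM in at least 3 of the 6 libraries), PBRM1 silencing had counts between 198.7 (RAD51D) and 51210 (PRKDC). For IRF1 silencing the counts lay between 934.4 (XRCC4) and 111100 (PRKDC), and for MUC1 silencing between 68.8 (RAD51D) and 14610 (PRKDC). RAD51D in MDA-MB-436 was thus the least well covered of the members tested, and MUC1 itself had 36.5 there. MDC1 had 12477 normalized counts per TPM in the IRF1 experiment, where the members tested had 285 to 3103, and 286 in the MUC1 experiment, where the other members had 6.67 to 71.3. The TPM values of MDC1 are therefore uncertain.

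In unsilenced cells, BRCA1 was the member that stood furthest apart between the lines among those with at least 1 TPM, after rescaling, in all 9 unsilenced libraries. After removal of short noncoding RNAs, BRCA1 averaged 217 ± 6.12 rescaled TPM in vehicle-treated MDA-MB-436 cells, against 20.4 ± 1.44 and 23.7 ± 1.93 in the BT-549 control cells of the PBRM1 and IRF1 experiments (SD, n = 3 each). The line with the BRCA1 mutation thus held 10.7-fold and 9.15-fold more BRCA1 transcript by this measure, which counts transcripts whether or not they carry the mutation. BRCA1 ranked 4 among the members in MDA-MB-436 cells, behind the end-joining genes XRCC5, XRCC6 and PRKDC, and 19 and 18 in the BT-549 controls. Its partner BARD1 averaged 43.7 ± 1.33 in MDA-MB-436 cells, against 16.6 ± 0.129 and 14.3 ± 0.413 in the BT-549 controls.

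Members over 2-fold higher in MDA-MB-436 cells than in both BT-549 control groups were BRCA1, BARD1, XRCC2, RAD52, BLM and FANCA, and 0 were over 2-fold lower. That is 6 of the 32 members with at least 1 rescaled TPM in all 9 libraries, against 16.0% of the 11192 genes that met this condition, with 10.4% of these genes over 2-fold lower. RAD52, which anneals single strands, averaged 24.6 ± 0.878 rescaled TPM in MDA-MB-436 cells, against 3.89 ± 0.256 and 3.47 ± 0.146 in the BT-549 controls. RAD51B, a member of the complex that assists filament assembly, was listed at 0 TPM in 5 of the 6 MDA-MB-436 libraries and at 0.0173 TPM in the other one. In BT-549 cells its rescaled level was 2.72 ± 0.0800 and 1.55 ± 0.184 in the controls of the PBRM1 and IRF1 experiments. The tables were normalized separately, so these levels are a description with no test. The BT-549 controls differed between themselves by over 2-fold at 6.25% of the members (RAD51C and XRCC2), against 13% of the 11192 genes. XRCC2 is also among the 6 members listed as higher in MDA-MB-436 cells.

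**Figure D1:**
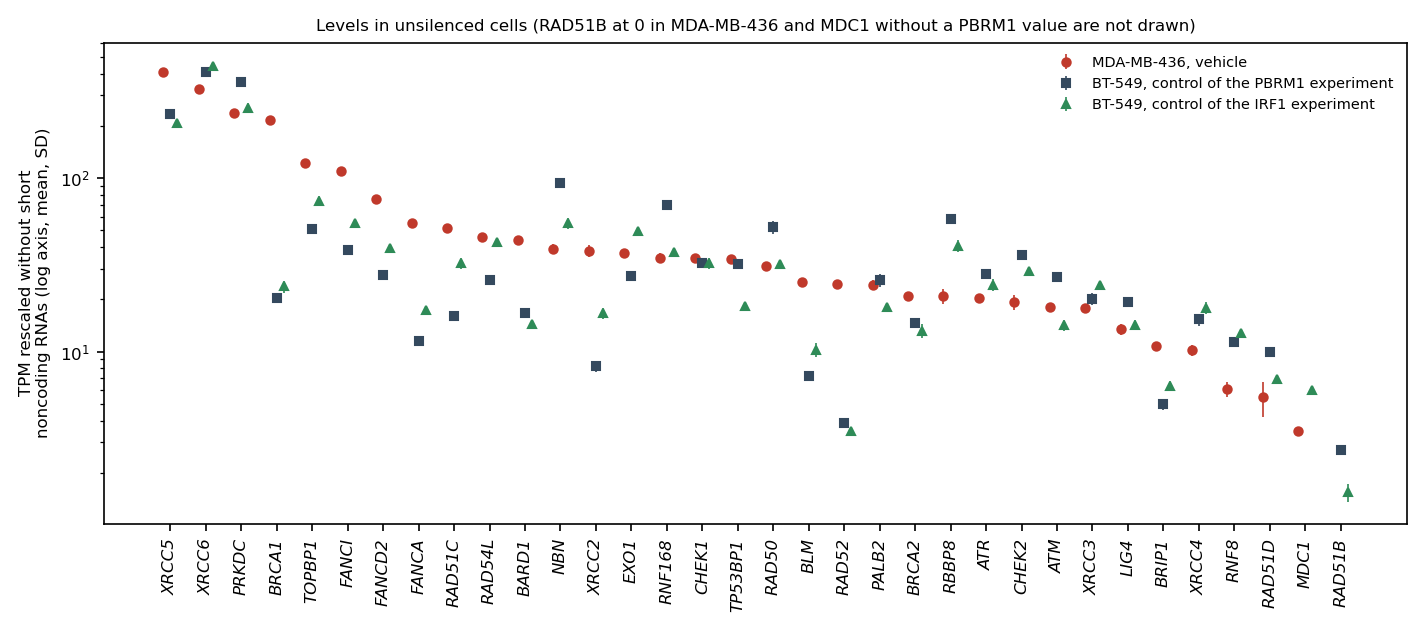
Level of each member in unsilenced cells, as TPM rescaled after removal of short noncoding RNAs (log axis, mean and SD of 3 libraries), ordered by the vehicle-treated MDA-MB-436 cells (circles) and set beside the BT-549 controls of the PBRM1 (squares) and IRF1 (triangles) experiments. BRCA1 lies at 217 in MDA-MB-436 cells and at 20.4 and 23.7 in the BT-549 controls.

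To determine whether PBRM1 silencing was associated with changes in repair genes, PBRM1shRNA and control BT-549 cells were compared. Members of the Fanconi pathway, the Ku genes and the resection nuclease EXO1 were higher in PBRM1shRNA cells, whereas break-sensing genes and RNF168 were lower. Of 31 members tested, 12 rose and 7 fell at an adjusted p under 0.05 (limma, Benjamini-Hochberg over all genes tested), against 24.6% of all 10639 genes tested higher and 34.8% lower. The groups did not overlap for 20 of the 31 members, of which 13 were higher and 7 lower, against 62.0% of all genes tested. The members' median log2 fold was 0.08, beside -0.05 over all genes tested. Removing the short noncoding RNAs moved the median of all genes to -0.17, and 13 members were then higher and 12 lower of 33 tested, against 22.0% and 50.8% of all genes. All 12 higher and 7 lower calls were among these. Quantile scaling gave 21 higher and 5 lower members and median-ratio scaling 15 and 7. Over all 10639 genes, quantile scaling gave 4558 higher and 3421 lower and median-ratio scaling 4030 and 4034. When each gene's own variance alone was used, RAD50 and RNF168 were the 2 falls that passed, against 2854 falls over all genes.

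All 4 Fanconi members rose, against 24.6% of all genes tested. Fanconi genes outside the 34 members were counted among the 61 other repair genes. FANCI and FANCD2 form the heterodimer that is ubiquitinated at crosslinks. FANCI had 13.8, 12.1 and 13.4 TPM in PBRM1shRNA cells, against 8.98, 7.94 and 9.16 TPM in control cells. Its log2 fold was 0.54 ± 0.0881 (SE, adjusted p = 5.76e-09 by limma). The lowest PBRM1shRNA library lay above the highest control library.

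FANCD2 had 9.99, 8.79 and 8.92 TPM in PBRM1shRNA cells, against 6.70, 5.68 and 6.24 TPM in control cells (log2 fold 0.51 ± 0.0882). FANCA, a subunit of the core ubiquitin ligase complex, averaged 3.74 ± 0.214 TPM in PBRM1shRNA cells and 2.58 ± 0.129 TPM in control cells (SD, n = 3 each). BRIP1, the FANCJ helicase that binds BRCA1, averaged 1.45 ± 0.0753 TPM in PBRM1shRNA cells and 1.12 ± 0.149 TPM in control cells. BRIP1 was near the filter and gave adjusted p above the threshold, up to 0.0567 (limma), when PBRM1shRNA library 1, PBRM1shRNA library 3 or control library b was left out.

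EXO1, the exonuclease that extends resection, showed the largest rise of the members tested. It had 10.9, 9.95 and 10.2 TPM in PBRM1shRNA cells, against 6.28, 5.37 and 6.65 TPM in control cells (log2 fold 0.68 ± 0.0882, adjusted p = 9.61e-14 by limma). The other members of its group moved the opposite way. RAD50, the coiled-coil subunit of the complex that tethers broken ends, had 8.89, 8.31 and 8.79 TPM in PBRM1shRNA cells, against 11.1, 10.7 and 13.4 TPM in control cells (log2 fold -0.39 ± 0.0881). NBN, the subunit of that complex that binds ATM, averaged 16.3 ± 1.13 TPM in PBRM1shRNA cells and 21.1 ± 2.17 TPM in control cells. RBBP8 (CtIP), which starts resection with that complex, averaged 10.5 ± 0.836 TPM in PBRM1shRNA cells and 13.0 ± 1.39 TPM in control cells. For RAD50, NBN and RBBP8 every PBRM1shRNA library lay below every control library, and the RBBP8 call was lost without control library c (log2 fold -0.20, adjusted p = 0.0788 by limma).

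In end joining, 3 of 5 genes rose and none fell, against 24.6% and 34.8% of all genes tested. XRCC6 had 134.9, 120.4 and 132 TPM in PBRM1shRNA cells, against 92.2, 86.1 and 97.8 TPM in control cells (log2 fold 0.48 ± 0.0857). XRCC5 had 76.6, 66.2 and 73.2 TPM in PBRM1shRNA cells, against 53.4, 47.7 and 56.5 TPM in control cells (log2 fold 0.45 ± 0.0864). The ratio of the Ku subunits, XRCC5 over XRCC6, was 0.567, 0.550 and 0.554 in PBRM1shRNA cells and 0.579, 0.555 and 0.578 in control cells, so both subunits rose by a similar factor and their ratios overlapped. PRKDC averaged 99.1 ± 9.37 TPM in PBRM1shRNA cells and 80.9 ± 8.33 TPM in control cells, and without PBRM1shRNA library 1 its log2 fold of 0.22 had an adjusted p of 0.0631 (limma). LIG4 and XRCC4 gave log2 folds of 0.02 and 0.08 and did not pass the test.

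BRCA1 had 5.25, 4.31 and 4.89 TPM in PBRM1shRNA cells, against 4.58, 4.01 and 5.18 TPM in control cells. BRCA2, which delivers the recombinase, had 3.60, 3.10 and 3.57 TPM in PBRM1shRNA cells, against 3.47, 2.88 and 3.48 TPM in control cells. The groups overlapped for both genes, with log2 folds of 0.06 ± 0.0869 for BRCA1 and 0.05 ± 0.0846 for BRCA2, and -0.01 and -0.02 after rescaling. With quantile scaling both passed as higher, at log2 folds of 0.17 (adjusted p = 0.0119 by limma) for BRCA1 and 0.19 (adjusted p = 0.00128 by limma) for BRCA2. PALB2, which bridges BRCA1 and BRCA2, fell, at 4.79, 3.63 and 4.27 TPM in PBRM1shRNA cells against 6.11, 4.83 and 6.49 TPM in control cells (log2 fold -0.38 ± 0.0872). BARD1 gave a log2 fold of -0.01 and passed as higher with quantile scaling (log2 fold 0.13, adjusted p = 0.00643 by limma).

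The paralogs of the recombinase, which assist filament assembly, were divided, with RAD51C and XRCC2 higher and RAD51D and XRCC3 lower. RAD51C had 5.37, 4.52 and 4.61 TPM in PBRM1shRNA cells, against 3.43, 3.36 and 4.03 TPM in control cells (log2 fold 0.34 ± 0.0863). RAD51D averaged 1.70 ± 0.0751 TPM in PBRM1shRNA cells and 2.23 ± 0.261 TPM in control cells. The XRCC2 call was lost without PBRM1shRNA library 1 (log2 fold 0.15) or control library b or c (log2 fold 0.16 and 0.20), and the XRCC3 call without PBRM1shRNA library 2 (log2 fold -0.16). RAD51B, below the filter at 0.356 to 0.469 TPM in PBRM1shRNA cells and 0.563 to 0.647 TPM in control cells, passed as lower only after rescaling.

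RAD54L, a translocase that acts on the filament, rose, with 8.58, 8.68 and 8.46 TPM in PBRM1shRNA cells against 6.38, 5.31 and 5.75 TPM in control cells (log2 fold 0.49 ± 0.0881). The helicase BLM had 2.19, 1.75 and 2.06 TPM in PBRM1shRNA cells, against 1.68, 1.43 and 1.75 TPM in control cells. The BLM groups nearly met, at 1.748 TPM in the lowest PBRM1shRNA library and 1.747 TPM in the highest control library, and the call was lost without PBRM1shRNA library 1 or 3 or control library b (adjusted p = 0.168, 0.115 and 0.0880 by limma). RAD52 did not reach the filter and, like RAD51B, passed as lower only after rescaling (log2 fold -0.28 ± 0.102, adjusted p = 0.0241 by limma).

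Of the chromatin signaling genes, RNF168, the ubiquitin ligase that marks histones at breaks, had 12.3, 10.8 and 11.4 TPM in PBRM1shRNA cells, against 15.7, 14.2 and 17.2 TPM in control cells. Its log2 fold on the log2(TPM + 1) scale was -0.41 ± 0.0879. RNF8, the ligase that acts before RNF168, averaged 2.48 ± 0.130 TPM in PBRM1shRNA cells and 2.54 ± 0.241 TPM in control cells. The RNF8/RNF168 ratio was 0.211, 0.216 and 0.220 in PBRM1shRNA cells and 0.164, 0.161 and 0.161 in control cells, with no overlap. Of the 8 partner pairs this was the 1 whose ratios did not overlap in this experiment. TP53BP1, which restrains resection, did not pass as deposited (log2 fold -0.10) and passed as lower after rescaling (log2 fold -0.20, adjusted p = 0.00869 by limma). It also passed as lower without control library b (log2 fold -0.18, adjusted p = 0.0317 by limma) and with array weights (log2 fold -0.20).

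Of the 5 checkpoint genes, 0 passed the test as deposited (limma), and TOPBP1 was the 1 with an unadjusted p under 0.05. TOPBP1, the activator of ATR, had 13.9, 12.1 and 13.2 TPM in PBRM1shRNA cells, against 11.9, 10.4 and 12.1 TPM in control cells (log2 fold 0.18 ± 0.0880, adjusted p = 0.0664 by limma). The names of the deposited columns end in a number, though the labels do not say that libraries of the same number form pairs. In the fit with this number as a block, 4 of the 5 passed. Over all genes, that fit called 3457 higher and 4573 lower of 10639 tested, so most genes passed. With the replicate block the adjusted p (limma) was 0.000486 for TOPBP1 and 0.00571 for CHEK1 (log2 fold 0.15), and 0.0202 for ATR (log2 fold -0.13) and 0.0473 for ATM (log2 fold -0.11). After rescaling, ATR (log2 fold -0.22, adjusted p = 0.000734 by limma) and ATM (log2 fold -0.21, adjusted p = 0.00657 by limma) were lower and TOPBP1 (log2 fold 0.11, adjusted p = 0.0453 by limma) was higher. CHEK2 gave a log2 fold of 0.09 and passed in neither the deposited, the rescaled nor the block fit. It passed as higher with quantile scaling (log2 fold 0.18, adjusted p = 0.0116 by limma) and median-ratio scaling (log2 fold 0.14, adjusted p = 0.0401 by limma). CHEK1 and TOPBP1 also passed as higher with both scalings, and ATM and ATR with neither.

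**Figure D2:**
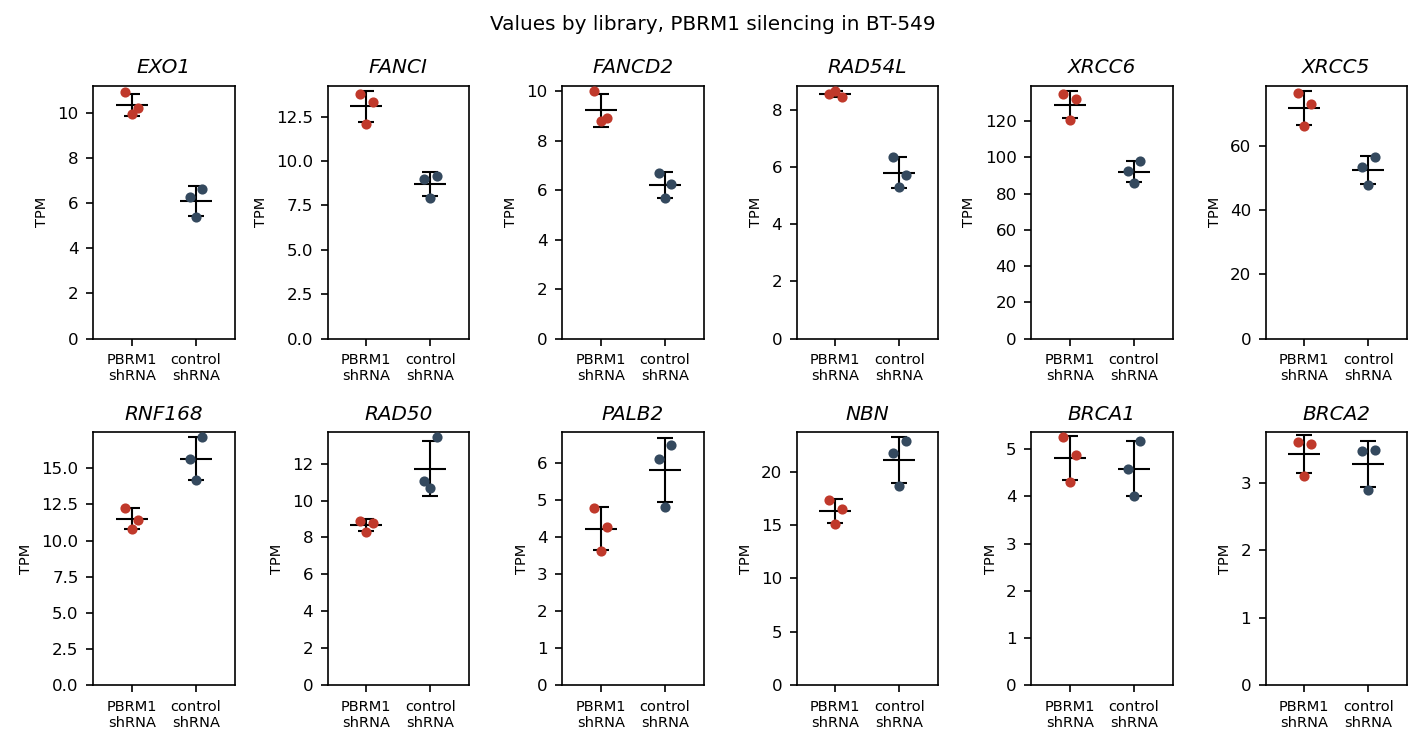
TPM of 12 members in each library of PBRM1shRNA (left) and control (right) BT-549 cells, with points for libraries and bars for mean and SD (n = 3 each; axes start at 0). The libraries do not overlap for EXO1, FANCI, FANCD2, RAD54L, XRCC6, XRCC5, RNF168, RAD50, PALB2 and NBN, and overlap for BRCA1 and BRCA2. The axes call the control group control shRNA, though its labels name no hairpin.

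Of 40 genes of DNA replication and mitosis, 31 rose and 1 (MCM6) fell in PBRM1shRNA cells (median log2 fold 0.61), against 24.6% and 34.8% of all genes tested. After rescaling 31 were higher and 5 lower, against 22.0% and 50.8% of all genes. The 5 were the replication helicase genes MCM2, MCM3, MCM6 and MCM7 and the G1/S cyclin gene CCNE1. MYBL2, a transcription factor of the G2/M program, averaged 60.2 TPM in PBRM1shRNA cells and 24.5 TPM in control cells. The part of these genes in the rise of the repair genes was not tested, and in bulk libraries more cells in a cycle phase and more RNA per cell cannot be told apart. Among 61 other repair genes, 18 rose and 13 fell, beside the same 24.6% and 34.8% of all genes tested. DNA2, a second resection nuclease, averaged 4.01 TPM in PBRM1shRNA cells and 2.10 TPM in control cells. TOP3A, the topoisomerase that works with BLM, averaged 7.95 TPM in PBRM1shRNA cells and 11.7 TPM in control cells, opposite in direction to BLM. Epithelial markers summed to 34.1 to 39.9 TPM in PBRM1shRNA cells and 3.99 to 4.65 TPM in control cells, with 2 of 5 at 1 TPM or more. KRT8 and KRT18 made up this difference, while CDH1, below the filter as deposited, had 0.194 TPM in PBRM1shRNA cells and 0.689 TPM in control cells with no overlap, and KRT19 was at 0 in PBRM1shRNA cells and averaged 0.125 TPM in control cells. Mesenchymal markers summed to 461 to 515.1 TPM in PBRM1shRNA cells and 403.3 to 465.4 TPM in control cells, with VIM and CDH2 higher and FN1 and ZEB1 lower. The leukocyte markers summed to 12.5 to 13.8 TPM in PBRM1shRNA cells and 31.0 to 35.4 TPM in control cells, of which CD68 was the 1 of 5 above 1 TPM and CD3E was at 0. The part of these shifts in the repair genes was not tested.

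Promoter letters known to bind E2F factors, which drive S-phase genes, are shown for the members in which a match was found, to place the letters beside the measured values. RefSeq start-site windows (GRCh38.p14, 250 bases before to 50 after the start) were found for 30 of the 34 members, in 45 windows. Windows were searched on both strands for TTTCCCGC, TTTCGCGC, TTTGCCGC or TTTGGCGC. A match was held by 6 members, against 3.99% of all genes with a window, and 3.31% of all windows. Each line gives 30 bases, 5′ to 3′ on the strand that reads the motif, with the match in capitals.
EXO1: aaaggtcagccTTTCGCGCgctgtgtaggc
FANCD2: tagttttcgacTTTCCCGCcaggcccgacg
TOPBP1: cgggaaccgacTTTCGCGCcaaccgcgcgg
XRCC2: agagactcaacTTTCCCGCcaccaacgcca
FANCA: ttgcgtttggcTTTGCCGCcgcggtgtagt
XRCC6: TTTGGCGCagggaagcgaccaacttggaca

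The EXO1 stretch is chr1:241848197-241848226 (plus strand), that of FANCD2 chr3:10026424-10026453 (minus) and that of TOPBP1 chr3:133661930-133661959 (plus). The XRCC2 stretch is chr7:152676102-152676131 (plus), that of FANCA chr16:89816801-89816830 (plus) and that of XRCC6 chr22:41621315-41621344 (minus). The match begins within 50 bases of the annotated start in 5 of the 6 and 172 bases before it in FANCA. Of these 6 members, 5 rose and 0 fell in PBRM1shRNA cells, 0 rose and 1 fell in IRF1shRNA cells, and 2 rose and 2 fell in DOX-treated MDA-MB-436 cells. Over all genes tested, 24.6% rose and 34.8% fell after PBRM1 silencing, 5.76% and 18.5% after IRF1 silencing, and 27.0% and 23.4% in DOX-treated cells, and nothing is read from the counts of 6 members. A CCAAT box (CCAAT) was present in 16 of the 30 members, against 39.7% of all genes, and the cell cycle element TTTGAA in 3, against 18.2%. An interferon-type element (GAAANNGAAA) was found in 0 of the 30, against 4.38% of all genes. A match is a description of letters and not a measured site.

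IRF1 silencing in BT-549 cells was compared with its own control shRNA cells to ask whether repair genes follow the interferon factor. EXO1, BLM, BARD1 and XRCC3 fell in IRF1shRNA cells. Of 29 members tested, 0 rose and 4 fell (limma), against 5.76% of all 9135 genes tested higher and 18.5% lower. At an unadjusted p under 0.05, 1 member was higher and 6 lower. The groups did not overlap for 4 of 29 members, against 33.9% of all genes tested. The members' median log2 fold was -0.06, as was that of all genes (-0.06). By each gene's own variance 0 members passed in either direction, against 66 genes higher and 506 lower over all genes tested. By that fit 0 members were higher and 4 lower at an unadjusted p under 0.05.

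The libraries of this experiment differed in the share of short noncoding RNAs, and removing these RNAs changed the picture. All 34 members then passed the filter, and 8 rose and 12 fell, against 35.4% and 29.4% of all 12707 genes. The 4 genes that fell in TPM as deposited fell again. Quantile scaling gave 8 higher and 10 lower members and median-ratio scaling 6 and 12. Over all 9135 genes tested there, quantile scaling gave 3626 higher and 2781 lower and median-ratio scaling 3119 and 3184.

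EXO1 had 3.33, 4.69 and 3.62 TPM in IRF1shRNA cells, against 7.72, 6.41 and 5.66 TPM in control cells (log2 fold -0.64 ± 0.143, adjusted p = 9.47e-05 by limma). Rescaled values were 28.9, 34.3 and 31.2 in IRF1shRNA cells and 50.7, 50.5 and 46.6 in control cells (log2 fold -0.63 ± 0.0627). No IRF1shRNA library reached the lowest control library on either scale. BLM had 0.771, 0.962 and 0.837 TPM in IRF1shRNA cells, against 1.67, 1.35 and 1.11 TPM in control cells (log2 fold -0.35 ± 0.0927, and -0.49 rescaled).

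BRCA1 had 2.04, 2.78 and 2.21 TPM in IRF1shRNA cells, against 3.91, 3.003 and 2.65 TPM in control cells, and one IRF1shRNA library lay above the lowest control library. Its log2 fold of -0.32 ± 0.128 missed the threshold (adjusted p = 0.0510 by limma). Rescaled, BRCA1 had 17.7, 20.3 and 19.0 in IRF1shRNA cells and 25.7, 23.7 and 21.8 in control cells, with no overlap (log2 fold -0.30 ± 0.0679, adjusted p = 0.00180 by limma). It also passed in TPM as deposited without IRF1shRNA library 2 or control library 3 (log2 fold -0.41 in both, adjusted p = 0.0225 and 0.0198 by limma). BARD1 fell further than BRCA1, with 1.08, 1.40 and 1.21 TPM in IRF1shRNA cells against 2.19, 1.87 and 1.68 TPM in control cells (log2 fold -0.38 ± 0.106, and -0.48 rescaled). The BRCA1/BARD1 ratio, which does not depend on the scale of a library, was 1.89, 1.98 and 1.83 in IRF1shRNA cells and 1.79, 1.61 and 1.57 in control cells.

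BRCA2 had 1.59, 1.89 and 1.65 TPM in IRF1shRNA cells, against 2.19, 1.69 and 1.44 TPM in control cells, with overlap (log2 fold -0.03, and 0.08 rescaled). XRCC3 had 2.07, 2.42 and 2.12 TPM in IRF1shRNA cells, against 3.51, 3.06 and 3.03 TPM in control cells (log2 fold -0.39 ± 0.127, and -0.40 rescaled). The BARD1 call was lost without IRF1shRNA library 1 (log2 fold -0.34) or 3 (log2 fold -0.38), and the XRCC3 call without IRF1shRNA library 1 or 3 or control library 2 (log2 fold -0.36, -0.37 and -0.41). The count of members that fell was then 2, 2 and 3 of 29, against 949, 944 and 1169 of all 9135 genes. Leaving out control library 1 made 3 members pass as higher, namely ATM, TP53BP1 and XRCC5 (log2 fold 0.34, 0.33 and 0.39). Over all genes, 1501 then passed as higher.

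Among the members not called in TPM as deposited, 4 of the 5 end-joining genes passed as higher after rescaling, against 35.4% of all genes tested. The same 4 passed as higher with quantile scaling (adjusted p from 1.84e-05 to 0.000937 by limma) and median-ratio scaling (0.000156 to 0.00449). XRCC5 had 256.0, 297.9 and 261.4 rescaled TPM in IRF1shRNA cells, against 214.9, 206.6 and 197.7 in control cells (log2 fold 0.39 ± 0.0579, and 0.27 as deposited, not past the test). XRCC6, LIG4 and PRKDC gave rescaled log2 folds of 0.32, 0.23 and 0.27. TP53BP1 had 24.0, 26.1 and 25.0 rescaled TPM in IRF1shRNA cells, against 18.8, 18.5 and 17.6 in control cells (log2 fold 0.44 ± 0.0530).

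ATM had 18.9, 19.9 and 20.1 rescaled TPM in IRF1shRNA cells, against 15.2, 14.1 and 13.2 in control cells (log2 fold 0.44 ± 0.0602). The ATM/ATR ratio, free of library scale, was 0.746, 0.717 and 0.745 in IRF1shRNA cells and 0.578, 0.587 and 0.584 in control cells. RAD52 (rescaled log2 fold 0.53) and MDC1 (0.43) completed the 8. The rescaled falls that were not called in TPM as deposited were BRCA1, PALB2, RAD51C, RAD54L, RNF168 and FANCI, and RAD51D and BRIP1, which had been below the filter, with log2 folds between -0.34 (BRIP1) and -0.13 (RAD54L).

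Ratios of partner genes did not overlap for 6 of 8 pairs after IRF1 silencing, a count given as a description because no share over other gene pairs was computed. FANCD2/FANCI was 0.906, 0.938 and 0.949 in IRF1shRNA cells and 0.734, 0.681 and 0.740 in control cells, so these Fanconi partners shifted relative to each other. XRCC4/LIG4 was 0.971, 0.962 and 1.10 in IRF1shRNA cells and 1.28, 1.22 and 1.24 in control cells. CHEK1/CHEK2 was 1.30, 1.22 and 1.23 in IRF1shRNA cells and 1.12, 1.14 and 1.05 in control cells. An exact permutation test of 3 against 3 libraries cannot give a p below 0.10 (two-sided), and these pairs had that value, or 0.200 after adjustment over 24 ratios.

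Of the replication and mitosis genes, 0 of 40 rose and 16 fell in IRF1shRNA cells as deposited, and 5 rose and 23 fell after rescaling. MYBL2 averaged 17.0 TPM in IRF1shRNA cells and 36.5 TPM in control cells. Of 54 other repair genes tested, 1 rose (TIPIN) and 2 fell (RMI1 and NHEJ1), and 26 rose and 13 fell of 61 after rescaling. Beside both lists, 5.76% of all genes tested rose and 18.5% fell as deposited, and 35.4% and 29.4% after rescaling. The part of cycling genes in the members' changes was not tested. Epithelial markers summed to 0.833 to 1.02 TPM in IRF1shRNA cells and 1.73 to 2.38 TPM in control cells, with 1 of 5 (KRT18) at 1 TPM or more. Mesenchymal markers summed to 223.6 to 272.3 TPM in IRF1shRNA cells and 310.3 to 413.9 TPM in control cells. VIM made up nearly all of the mesenchymal sum and was the 1 of 4 that fell as deposited (FN1 also fell after rescaling), and CDH2 averaged 15.2 TPM in IRF1shRNA cells and 15.5 TPM in control cells. Of the leukocyte markers, CD68 was the 1 of 5 at 1 TPM or more and fell. It averaged 5.90 TPM in IRF1shRNA cells and 8.42 TPM in control cells (log2 fold -0.45, adjusted p = 0.0118 by limma). CD14, below the filter as deposited, averaged 0.365 TPM in IRF1shRNA cells and 0.189 TPM in control cells with no overlap. CD3E was at 0 throughout.

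**Figure D3:**
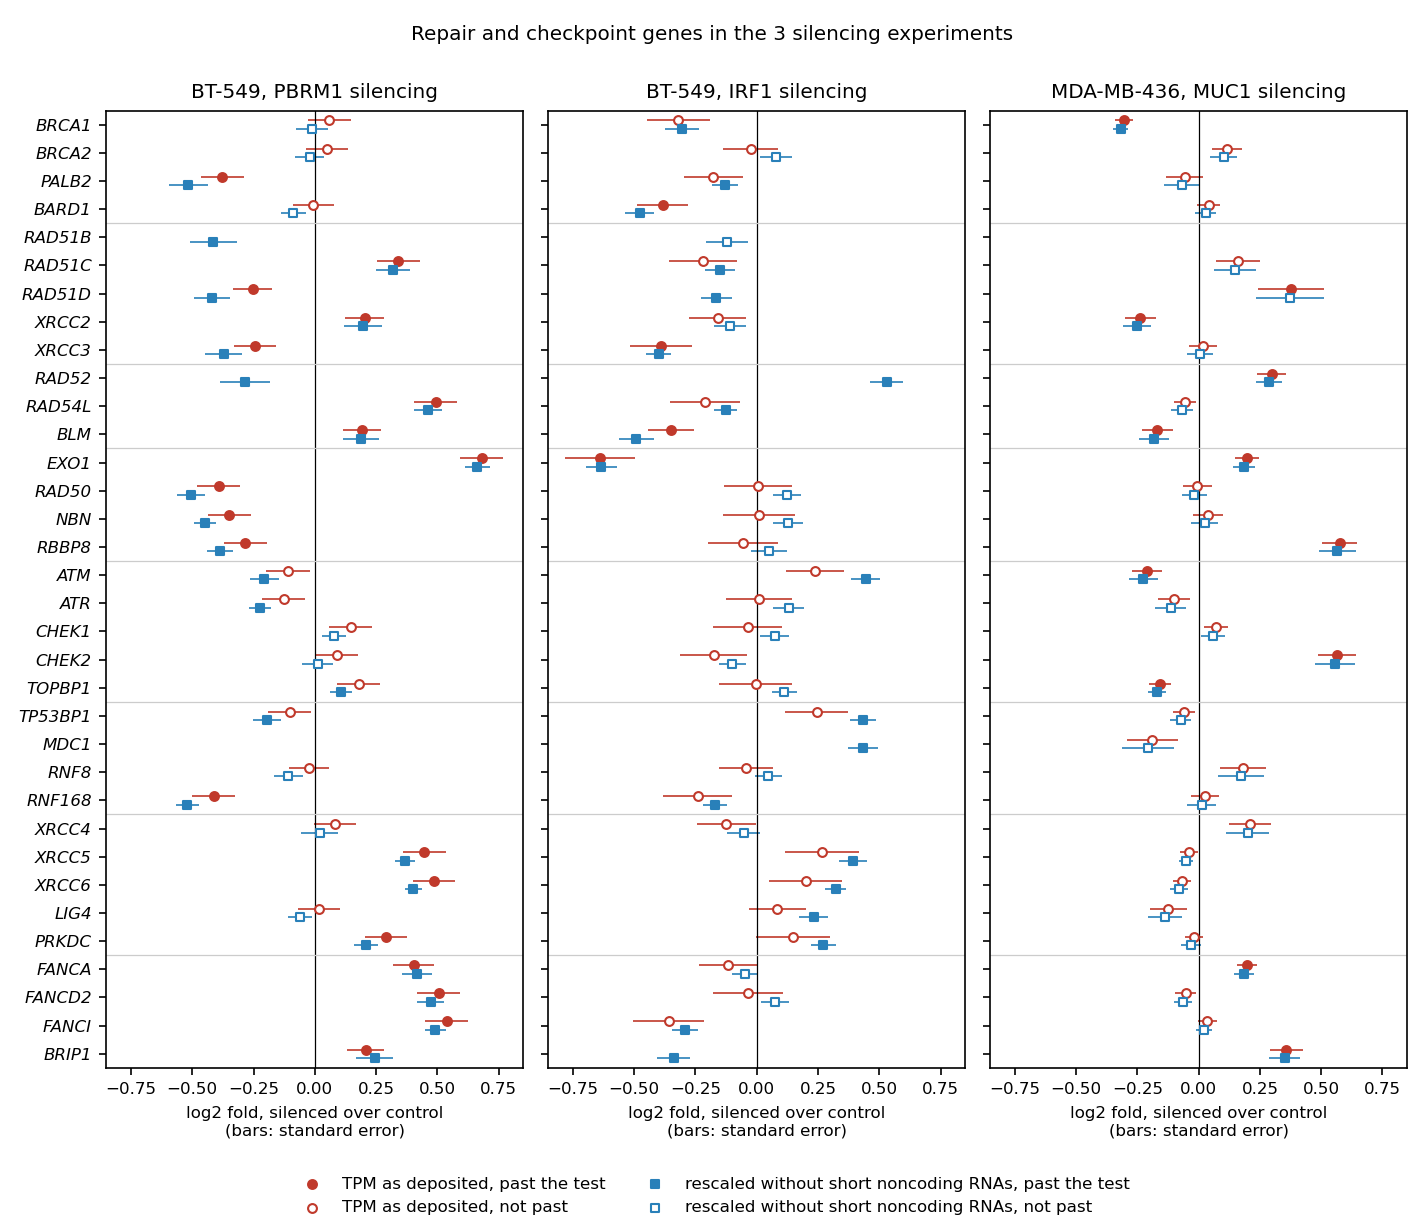
Log2 fold with standard error of each member (silenced over control, grouped by role from top to bottom) in the PBRM1, IRF1 and MUC1 experiments, for TPM as deposited (circles) and after removal of short noncoding RNAs (squares), filled where the adjusted p was under 0.05. EXO1 lies at 0.68 after PBRM1 silencing, -0.64 after IRF1 silencing and 0.20 in DOX-treated MDA-MB-436 cells.

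In MDA-MB-436 cells, DOX-treated cells with induced MUC1 hairpin were set against vehicle-treated cells to ask whether repair genes respond in a BRCA1 mutant background. BRCA1 itself fell, and RBBP8 and CHEK2 showed the largest rises of the members tested. Of 33 members tested, 7 rose and 5 fell (limma), against 27.0% of all 13229 genes tested higher and 23.4% lower. The groups did not overlap for 16 of 33 members, against 59.2% of all genes tested. The members' median log2 fold was 0.02, as was that of all genes (0.02). After removal of short noncoding RNAs 6 rose and 5 fell, against 26.2% and 25.1% of all genes. RAD51D was the call that was lost (adjusted p = 0.0532 by limma).

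BRCA1 (GRCh38.p14, chromosome 17, 43044295 to 43170327) had 152.9, 151.8 and 151.9 TPM in DOX-treated cells, against 184.4, 196.2 and 184.5 TPM in vehicle-treated cells. Its log2 fold was -0.31 ± 0.0363 (adjusted p = 0.000149 by limma) and -0.32 after rescaling. The groups lay well apart, and the call held under all 16 alternatives, with adjusted p (limma) up to 0.00513. BARD1 had 39.4, 38.2 and 39.4 TPM in DOX-treated cells, against 39.6, 37.8 and 36.5 TPM in vehicle-treated cells. The BRCA1/BARD1 ratio was accordingly 3.88, 3.97 and 3.85 in DOX-treated cells and 4.66, 5.199 and 5.06 in vehicle-treated cells.

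BRCA2 had 19.9, 19.7 and 19.7 TPM in DOX-treated cells, against 17.7, 19.6 and 17.2 TPM in vehicle-treated cells. Its log2 fold of 0.11 ± 0.0614 did not pass the test (adjusted p = 0.153 by limma), though it did without vehicle library 2 (log2 fold 0.17, adjusted p = 0.0481). PALB2 gave -0.06 and did not pass.

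RBBP8 (chromosome 18, 22914139 to 23026486) had 25.9, 27.3 and 28.7 TPM in DOX-treated cells, against 18.8, 16.3 and 19.0 TPM in vehicle-treated cells (log2 fold 0.58 ± 0.0714, adjusted p = 0.000192 by limma). CHEK2, the kinase downstream of ATM, had 26.8, 23.1 and 25.4 TPM in DOX-treated cells, against 17.2, 15.1 and 17.6 TPM in vehicle-treated cells (log2 fold 0.56 ± 0.0769, adjusted p = 0.000335 by limma). In both genes every DOX-treated library exceeded every vehicle-treated one. CHEK1 had 30.5, 32.2 and 32.0 TPM in DOX-treated cells, against 28.8, 30.7 and 30.6 TPM in vehicle-treated cells, and did not pass. CHEK1/CHEK2 was 1.14, 1.40 and 1.26 in DOX-treated cells and 1.67, 2.03 and 1.73 in vehicle-treated cells.

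ATM moved the opposite way from its substrate CHEK2. It had 12.8, 13.3 and 14.1 TPM in DOX-treated cells, against 15.6, 16.1 and 15.5 TPM in vehicle-treated cells (log2 fold -0.21 ± 0.0610, adjusted p = 0.0176 by limma). The ATM call was lost without DOX library 1 (log2 fold -0.18) or vehicle library 2 (log2 fold -0.20). TOPBP1 had 94.8, 94.4 and 97.2 TPM in DOX-treated cells, against 106.2, 112.2 and 101.5 TPM in vehicle-treated cells (log2 fold -0.16 ± 0.0436). ATR gave -0.10 and did not pass.

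BRIP1, the helicase that binds BRCA1, had 12.4, 12.4 and 12.1 TPM in DOX-treated cells, against 9.92, 9.34 and 8.92 TPM in vehicle-treated cells (log2 fold 0.36 ± 0.0666, adjusted p = 0.00196 by limma). FANCA averaged 55.2 ± 0.907 TPM in DOX-treated cells and 48.0 ± 0.959 TPM in vehicle-treated cells (SD, n = 3 each). FANCD2 and FANCI, which rose after PBRM1 silencing in BT-549 cells, had log2 folds of -0.05 and 0.03 here and did not pass. EXO1 averaged 37.0 ± 1.49 TPM in DOX-treated cells and 32.1 ± 0.700 TPM in vehicle-treated cells (log2 fold 0.20 ± 0.0482).

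RAD52 had 24.9, 27.3 and 27.1 TPM in DOX-treated cells, against 20.9, 22.5 and 20.6 TPM in vehicle-treated cells (log2 fold 0.30 ± 0.0594, adjusted p = 0.00288 by limma). XRCC2 had 28.5, 27.5 and 27.5 TPM in DOX-treated cells, against 36.1, 32.3 and 30.7 TPM in vehicle-treated cells (log2 fold -0.24 ± 0.0634). BLM had 20.6, 17.9 and 19.3 TPM in DOX-treated cells, against 21.3, 22.2 and 21.8 TPM in vehicle-treated cells (log2 fold -0.17 ± 0.0620, adjusted p = 0.0476 by limma). These 3 genes separated the groups, but BLM lay at the threshold, and leaving out DOX library 2 or 3 or any of the vehicle libraries gave adjusted p (limma) between 0.0749 and 0.158. RAD51D had 6.60, 6.46 and 5.97 TPM in DOX-treated cells, against 5.72, 3.61 and 4.84 TPM in vehicle-treated cells. With single libraries left out, its call was kept only without vehicle library 1, and its log2 fold of 0.38 became 0.23 without vehicle library 2. Without vehicle library 2, 3 members passed as lower in place of 5, as ATM and BLM were lost, against 2668 of all 13229 genes lower.

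None of the 5 end-joining genes passed the test, with log2 folds between -0.12 (LIG4) and 0.21 (XRCC4), and XRCC4 passed without DOX library 3 (log2 fold 0.27, adjusted p = 0.0394 by limma). Ku stayed abundant, at 344.7 ± 6.24 TPM of XRCC5 in DOX-treated cells and 354.4 ± 12.8 TPM in vehicle-treated cells. The chromatin signaling genes TP53BP1, MDC1, RNF8 and RNF168 also did not pass, with log2 folds between -0.19 (MDC1) and 0.18 (RNF8). RAD51C, at 0.16, passed without DOX library 2 (log2 fold 0.27, adjusted p = 0.00802 by limma).

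**Figure D4:**
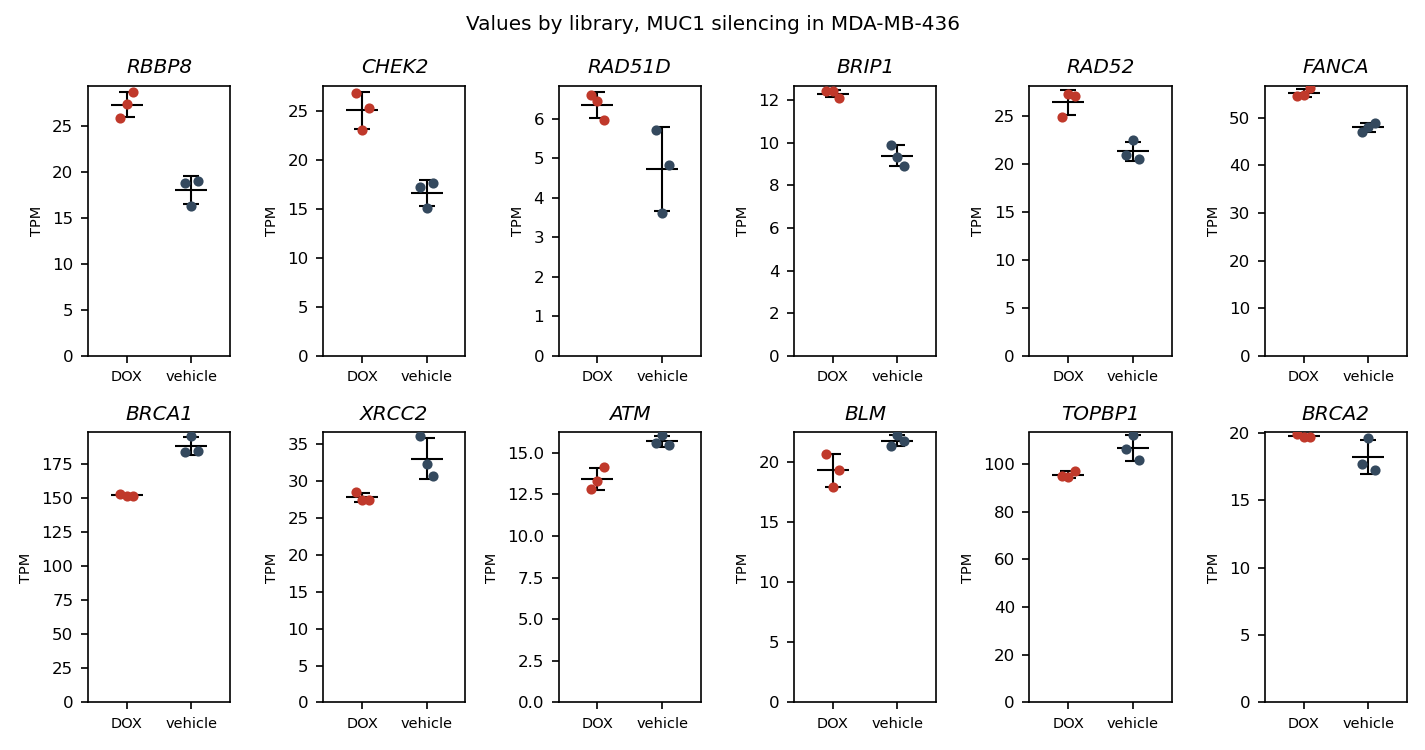
TPM of 12 members in each library of DOX-treated (left) and vehicle-treated (right) MDA-MB-436/tet-MUC1shRNA cells, with points for libraries and bars for mean and SD (n = 3 each; axes start at 0). BRCA1 lies between 151.8 and 152.9 TPM in DOX-treated cells and between 184.4 and 196.2 TPM in vehicle-treated cells.

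Of the 40 cycling genes, 11 rose and 7 fell in DOX-treated MDA-MB-436 cells (median log2 fold 0.01), against 27.0% and 23.4% of all genes tested. Those that rose were CCNE1, CDC6, CDC25A, CDT1, MCM7, PCNA, RRM1, E2F2, E2F8, MYBL2 and BIRC5, and those that fell were TOP2A, CCNA2, AURKA, PLK1, BUB1, TTK and UBE2C. Of 61 other repair genes, 16 rose and 17 fell, beside the same 27.0% and 23.4% of all genes tested. PARP1, the sensor of strand breaks, averaged 122.7 TPM in DOX-treated cells and 91.2 TPM in vehicle-treated cells. GEN1, a resolvase of recombination junctions, averaged 14.1 TPM in DOX-treated cells and 23.5 TPM in vehicle-treated cells. Epithelial markers summed to 1648 to 1724 TPM in DOX-treated cells and 836.3 to 866.6 TPM in vehicle-treated cells, with 4 of 5 at 1 TPM or more. Mesenchymal markers summed to 1385 to 1460 TPM in DOX-treated cells and 2080 to 2196 TPM in vehicle-treated cells, mostly VIM, with CDH2 and ZEB1 also lower. FN1, of the same list, rose, at 321.8 TPM in DOX-treated cells against 242 TPM in vehicle-treated cells (log2 fold 0.41, adjusted p = 1.16e-05 by limma). The leukocyte markers summed to 103.5 to 115.3 TPM in DOX-treated cells and 107.8 to 115.4 TPM in vehicle-treated cells, with 2 of 5 at 1 TPM or more. CD68 made up most of this sum and did not pass (log2 fold -0.08). CD14 rose, at 9.03 TPM in DOX-treated cells against 4.34 TPM in vehicle-treated cells (log2 fold 0.89, adjusted p = 0.00063 by limma). CD3E was at 0 in all 6 libraries, and KRT19 was at 0 in the DOX-treated ones. The part of these shifts in the members' changes was not tested.

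The 8 partner ratios allow the experiments to be read without the scale of a library. RNF8/RNF168 was higher in silenced cells in all 3 experiments, by 0.41, 0.23 and 0.19 on the log2 scale after PBRM1, IRF1 and MUC1 silencing, with no overlap in any. RAD50/NBN and XRCC5/XRCC6 overlapped between silenced and control libraries in all 3 experiments. BRCA1/BARD1 differed by 0.08 after PBRM1 silencing (overlapping), 0.20 after IRF1 silencing and -0.35 in DOX-treated MDA-MB-436 cells. Ratios did not overlap for 1, 6 and 5 of 8 pairs in the PBRM1, IRF1 and MUC1 experiments, with an exact permutation p of 0.10 for each such pair, or 0.200 after adjustment, and no share over other gene pairs beside these counts.

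**Figure D5:**
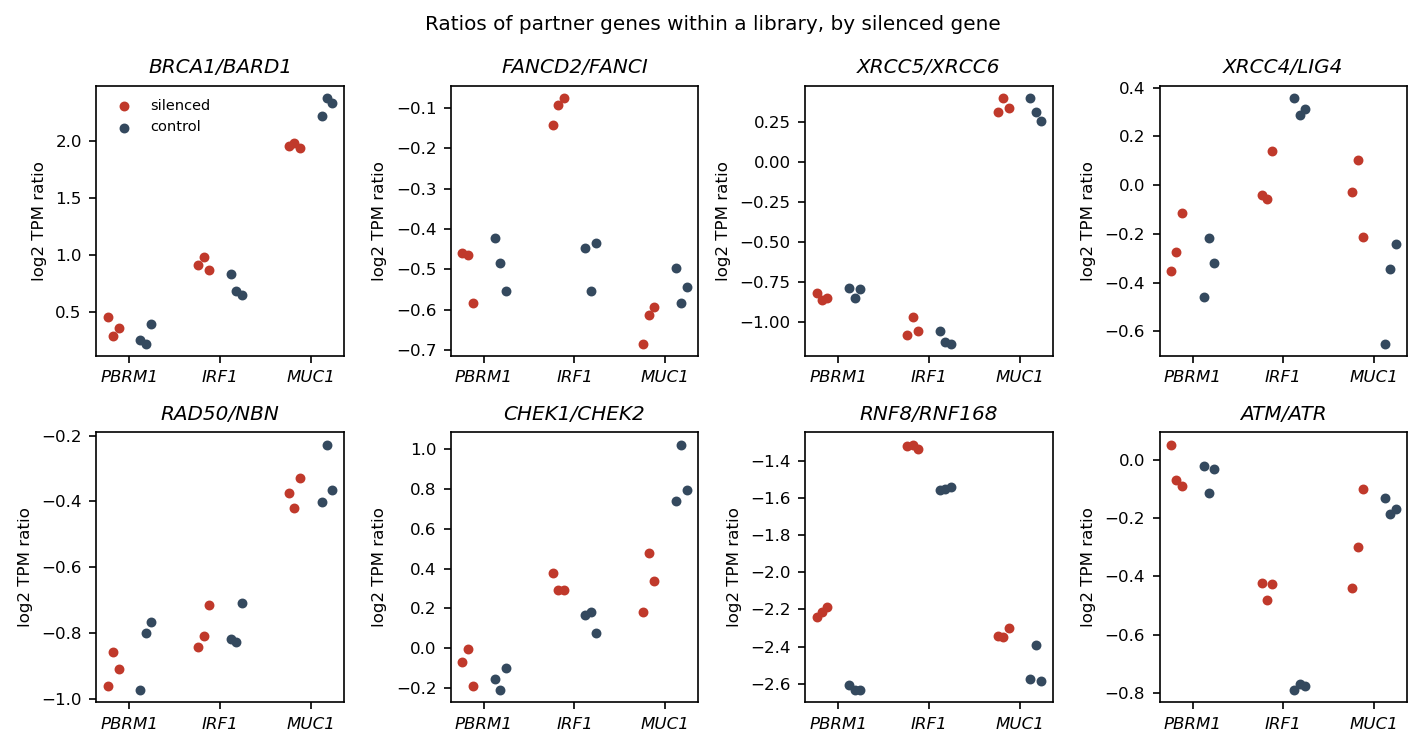
Log2 ratio of TPM of 8 pairs of partner genes within each library, by silenced gene, with silenced libraries to the left of control libraries and 3 points per group. RNF8/RNF168 separates the groups in all 3 experiments, and RAD50/NBN in none.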

How the data were processed

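RNA-seq was made from 18 cultures in 6 groups of 3 with a stranded poly(A) kit. Per the submitters' processing notes, reads were aligned with STAR to GRCh38 and tested with DESeq2 (versions not given in the sources used here, nor are the annotation and the program behind TPM). The authors deposited TPM for each gene symbol and library in 1 table per experiment. They also deposited tables of their own comparisons (a mean normalized count, log2 fold change, standard error, score and p-values). Of these, the mean normalized count, a depth signal deposited by the authors and pooled over both groups, was used to show coverage, and the other columns were not used. For PBRM1 the labels do not say which control column is which sample, so these libraries bear the letters a, b and c.

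Silenced and control libraries were compared within each table as log2(TPM + 1), for genes with at least 1 TPM in at least 3 of 6 libraries, with limma 3.58.1 in R 4.3.3 (lmFit, eBayes with trend, two-sided, Benjamini-Hochberg over all genes tested, threshold 0.05). The log2(TPM + 1) scale understates folds of low genes. In both BT-549 fits the prior degrees of freedom were infinite, so standard errors there are shared by genes of similar level. Rescaled TPM was divided by its sum without short noncoding RNAs (recognised by symbol) and multiplied by 1000000. Partner ratios were compared by exact permutation. The fit was tested on simulated data.

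In the PBRM1 experiment, deviations of silenced and control libraries with the same column number correlated at 0.455, 0.309 and 0.290. Those with different numbers correlated at -0.377 to 0.114 there, and at up to 0.2945 in the IRF1 experiment. Whether the numbers pair the libraries was not tested. What the number stands for is not stated. Control libraries a, b and c carry the numbers 1, 2 and 3.

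The members and all gene lists were chosen with earlier results of these data known. Values per library were given for the targeted gene, BRCA1, BRCA2 and up to 8 members per experiment past the threshold whose groups did not overlap, taken by size of fold, and the others by role group with 1 to 4 examples. Some values per library beyond these were added after they were seen. Alternatives were 10 settings and the omission of each library in turn, with 2 combined settings added after seeing the data. Sequences and gene positions are from RefSeq (GRCh38.p14).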

Additional observations from a re-analysis of the deposited data

Results flagged for a closer look

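EXO1, BLM, RBBP8, RAD51D and XRCC2 moved in opposite directions in pairs of experiments, with all silenced libraries of one experiment above their controls and all of the other below, and with both folds past the adjusted threshold of limma. The difference itself was not tested, since the tables were normalized separately. IRF1 was lower in PBRM1shRNA cells (log2 fold -1.59, and -1.765 rescaled) as well as in IRF1shRNA cells (log2 fold -1.40, and -1.80 rescaled). For EXO1 the log2 fold after PBRM1 silencing exceeded that after IRF1 silencing by 1.32 (0.68 and -0.64), and the fold after IRF1 silencing minus that in DOX-treated MDA-MB-436 cells was -0.836 (-0.64 and 0.20). For BLM the fold after PBRM1 silencing exceeded that after IRF1 silencing by 0.542 (0.19 and -0.35) and that in DOX-treated MDA-MB-436 cells by 0.361 (0.19 and -0.17). For RBBP8 the fold after PBRM1 silencing minus that in DOX-treated MDA-MB-436 cells was -0.859 (-0.28 and 0.58), for RAD51D it was -0.63 (-0.25 and 0.38) and for XRCC2 it was 0.442 (0.20 and -0.24). Of these folds, BLM, XRCC2 and RBBP8 after PBRM1 silencing and BLM and RAD51D in MDA-MB-436 cells each lost the call when certain single libraries were left out.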

How the results depend on the processing

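The 12 rises and 7 falls among members after PBRM1 silencing became 7 rises when a mean of at least 5 TPM was required, with 18 members tested that all kept their call, and 21 with quantile scaling (BRCA1 and BRCA2 among them). The falls became 12 with short noncoding RNAs removed and 2 with each gene's own variance. Over all genes, rises were 1879 of 6270 with the mean of 5 TPM required and 4558 of 10639 with quantile scaling. Falls over all genes were 6441 of 12681 with short noncoding RNAs removed and 2854 of 10639 with own variance. In the IRF1 comparison, where 0 members rose and 4 fell, the count of rises became 8 with short noncoding RNAs removed, 8 with quantile scaling, 6 with median-ratio scaling and 8 with array weights. The count of falls there became 12, 10, 12 and 19 under these settings, and 2 without a filter, 0 with own variance and 1 when means under 5 TPM were dropped, with 10 members tested that all kept their call. In the same order, all genes gave 4494, 3626, 3119 and 3367 rises and 3731, 2781, 3184 and 5117 falls. Genes tested were 12707 with short noncoding RNAs removed and 9135 with quantile scaling, median-ratio scaling or array weights. Falls over all genes were 1941 of 20851 without a filter, 506 of 9135 with own variance and 645 of 3993 without the low means. For MUC1 silencing the 5 falls became 3 with own variance, against 2545 of 13229 genes. The array weights fit gave warnings of incomplete convergence.

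Where libraries of a number were treated as pairs (replicate block), 14 members rose and 9 fell after PBRM1 silencing, 0 and 2 after IRF1 silencing and 7 and 4 after MUC1 silencing. Over all genes the block gave 3457 rises and 4573 falls of 10639 for PBRM1 and 189 and 927 of 9135 for IRF1. For MUC1 it gave 3491 and 2977 of 13229. Libraries of the same number correlated at -0.209, 0.0854 and 0.228 in the IRF1 experiment and at 0.0530, -0.0364 and 0.00575 in the MUC1 experiment. Combined settings chosen after seeing the data gave, with short noncoding RNAs removed, 13 falls with own variance and 12 with the replicate block for PBRM1. For IRF1 they gave 8 rises and 11 falls with own variance and 9 and 9 with the replicate block. Over all genes the PBRM1 falls were 5789 with own variance and 6635 with the block, of 12681. For IRF1 all genes gave 3843 rises and 3236 falls with own variance and 4502 and 3745 with the block, of 12707.

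Leaving out single libraries gave 8 to 13 rises and 6 to 10 falls for PBRM1, 0 to 3 rises and 2 to 6 falls for IRF1, and 6 to 7 rises and 3 to 4 falls for MUC1. Over all genes the rises and falls were 2017 to 2744 and 3087 to 4590 of 10639 for PBRM1. They were 190 to 1501 and 944 to 1856 of 9135 for IRF1, and 3066 to 3433 and 2629 to 3053 of 13229 for MUC1. Partner ratios without overlap numbered 1 to 2, 6 to 7 and 5 to 6.

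Reversals of sign were confined to members that had not passed the test in the main fit, though some reversed folds passed under an alternative. For PBRM1, removal of short noncoding RNAs gave log2 folds of -0.0132 (BRCA1), -0.0203 (BRCA2) and -0.0610 (LIG4). Quantile scaling gave 0.1266 (BARD1), 0.0083 (ATM) and 0.1539 (RNF8), and median-ratio scaling 0.0395 (BARD1) and 0.0179 (RNF8). With quantile scaling BARD1 and RNF8 passed as higher (adjusted p = 0.00643 and 0.00527 by limma). For IRF1, removal of short RNAs, quantile and median-ratio scaling gave 0.0792, 0.0675 and 0.0289 (BRCA2), 0.0499, 0.0280 and 0.0108 (RBBP8), 0.0731, 0.0661 and 0.0294 (CHEK1), 0.0464, 0.0402 and 0.0071 (RNF8), 0.0755, 0.0560 and 0.0324 (FANCD2), and 0.1132, 0.0820 and 0.0689 (TOPBP1). Array weights gave 0.0059 (FANCD2) and -0.0447 (NBN), and NBN then passed as lower (adjusted p = 0.000328 by limma). For MUC1, quantile scaling gave -0.0075 (BARD1), -0.0065 (NBN), -0.0105 (RNF168) and -0.0063 (FANCI).

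Single libraries left out moved the log2 fold across 0 for these members. For PBRM1 the ranges were -0.0175 to 0.1343 (BRCA1), -0.0189 to 0.1028 (BRCA2), -0.0526 to 0.0248 (BARD1), -0.0753 to 0.0228 (RNF8) and -0.0356 to 0.0594 (LIG4). For IRF1 they were -0.1121 to 0.0801 (BRCA2), -0.0913 to 0.1144 (RAD50), -0.1039 to 0.1428 (NBN), -0.1950 to 0.0801 (RBBP8), -0.0789 to 0.1325 (ATR), -0.1378 to 0.0875 (CHEK1), -0.1101 to 0.0354 (RNF8), -0.1379 to 0.0881 (FANCD2) and -0.1077 to 0.1123 (TOPBP1). For MUC1 they were -0.0031 to 0.0424 (XRCC3), -0.0634 to 0.0247 (RAD50), -0.0057 to 0.0998 (NBN), -0.0148 to 0.0589 (RNF168) and -0.0380 to 0.0088 (PRKDC). The causes of these shifts were not tested. Depth limits the low members most, and the authors' mean normalized counts of RAD51B and RAD52 were 204 and 120.6 in the PBRM1 experiment and 397.9 and 463.7 in the IRF1 experiment.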
